A study of Mus musculus with 9 samples.

Results

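The common gamma chain and related cytokine receptors were examined as 10 genes, found by their symbols in the deposited table of raw counts: Il2rg, Il7r, Il2ra, Il2rb, Il15ra, Il4ra, Il9r, Il21r, Crlf2 and Csf2rb. All 10 were present among the 23466 genes of the table, and all 10 were among the 15117 genes abundant enough to be tested. RNA had been sequenced from group 2 innate lymphoid cells (ILC2s), lymphocytes that live in tissues and make type 2 cytokines. The wild type C57/Bl6 mice were 10 weeks old. The groups were ILC2s of brain meninges taken 24 h after an 80 kdyn contusion of the spinal cord, ILC2s of brain meninges without injury, and ILC2s of lung without injury, with 3 libraries each. Per the labels, cells were sorted as DAPI-negative, CD45-positive, lineage-negative cells carrying ST2 and Thy1, and 5 mice were pooled per group. The labels do not tie a library to its own pool, so p-values rest on library-to-library spread alone, part of which may be technical. They name no sham operation, so contusion and surgery cannot be told apart.

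Receptors of this family are built from chains that bind the cytokine together with a shared chain that takes part in signalling. The common gamma chain, encoded by Il2rg, joins the receptors for IL-2, IL-4, IL-7, IL-9, IL-15 and IL-21, and it signals through the kinase JAK3, with JAK1 on the partner chain, to STAT proteins. The IL-7 receptor alpha chain also pairs with the product of Crlf2 to bind the epithelial cytokine TSLP. Csf2rb encodes the common beta chain of the receptors for GM-CSF, IL-3 and IL-5. ILC2s depend on IL-7 for their development and survival, and IL-2, IL-9 and TSLP are known to sustain or activate them.

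Library totals ranged from 13407277 to 18253462 counts, and where a gene had 0 counts, a level of up to 0.163 to 0.239 CPM (3 counts) was possible by counting error alone. CPM are counts scaled to library size with trimmed-mean factors. Markers of tissue cells set lung apart. Those of lung epithelium summed to 7.96 to 27.6 CPM in injured meninges, 3.76 to 11.1 in uninjured meninges and 638 to 2108 in lung, those of endothelium to 40.9 to 95.3, 42.3 to 119 and 139 to 445 CPM in the same groups, and those of fibroblasts to 0.877 to 25.7, 1.61 to 59.4 and 72.8 to 166 CPM. Their part in any difference from lung was not tested. Injured meninges 2 had the fewest genes with a count, 13465, against 15761 to 18452 in the other 8 libraries. The summed level of 9 genes of the sort gate and of ILC2s lay between 5694 and 7816 CPM in injured meninges, 5156 and 6732 in uninjured meninges and 5753 and 7632 in lung. Of the gate genes, Thy1 was lower in injured meninges, with 92.5, 60.1 and 51.4 CPM against 279, 167 and 229 CPM in uninjured meninges (log2 fold change -1.73 ± 0.29, SE, edgeR adjusted p = 0.0218).

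Transcripts of 3 receptor chains, Il7r, Il2ra and Il2rg, made up most of the family in every library. Divided by exon length, Il7r averaged 342 ± 92.5 CPM per kb over the 9 libraries (SD), Il2ra 254 ± 50.2 and Il2rg 121 ± 25.0. Per kb, Il7r stood above Il2ra in 9 of 9 libraries, although the ranges of both genes over the libraries overlapped. The lengths come from another build than the counts, so levels per kb are approximate. In CPM, not divided by length, Il2ra was above Il7r in uninjured meninges 1 (1552 against 1531) and 3 (1122 against 1084). The same held in lung 2 (1758 against 1483). Again per kb, Il2ra stood above Il2rg, and Il2rg above the genes that follow, without overlap. Il9r, at 25.1 ± 14.3 CPM per kb, and Il2rb, at 22.8 ± 11.6, came next and were not separated, with Il9r higher in 6 of 9 libraries. Il4ra, at 5.20 ± 2.53, and Il15ra, at 5.10 ± 4.38, overlapped as well. The last 3 were Crlf2 at 1.66 ± 1.07, Csf2rb at 1.08 ± 0.97 and Il21r at 0.70 ± 1.51 CPM per kb, each overlapping its neighbour in the order. In mean CPM, Csf2rb was above Crlf2 in each group.

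**Figure D1:**
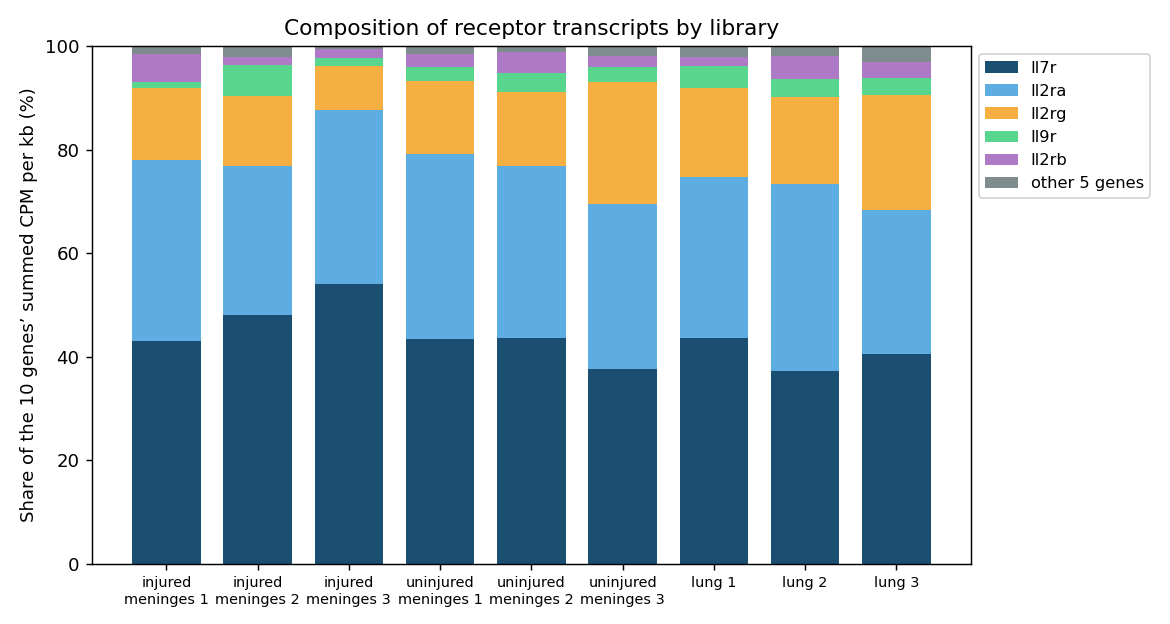
Composition of the 10 receptor genes in each library, as the percentage of their summed CPM per kb of exon. Each bar is 1 library. Il7r took 37.3% to 54.1%, Il2ra 27.7% to 36.1% and Il2rg 8.52% to 23.5%, and the largest Il7r share was in injured meninges 3.

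The share of Il7r and Il2ra together was 78.0%, 76.8% and 87.6% in injured meninges, 79.2%, 76.8% and 69.5% in uninjured meninges and 74.6%, 73.4% and 68.2% in lung. Il7r over Il2rg, both as CPM per kb, was 3.10, 3.52 and 6.35 in injured meninges, 3.09, 3.04 and 1.61 in uninjured meninges and 2.52, 2.22 and 1.82 in lung. The injured libraries lay above both other groups in this ratio, with injured meninges 1 close to uninjured meninges 1. The ratio was chosen after its values were seen and is given as a description. An exact permutation test gave p = 0.1 for injured meninges against each other group, and p = 0.6 for uninjured meninges against lung. That test cannot decide the question, since 3 against 3 libraries cannot give an exact permutation p below 0.1. The share of Il7r and Il2ra overlapped between injured and uninjured meninges.

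None of the 10 receptor genes passed the threshold in any comparison. For injured against uninjured meninges, edgeR called 0 of 10 at an adjusted p under 0.05, against 0.192% of all genes tested (29 of 15117). At an unadjusted p under 0.05 there was 1, Il7r, against 8.94% of all genes, and DESeq2 called 0, against 2.86%. For uninjured meninges against lung, edgeR called 0 of 10, against 0.635% of all genes. There were 0 at an unadjusted p under 0.05, against 7.98%, and 0 called by DESeq2, against 3.52%. For injured meninges against lung, where tissue and injury differ together, edgeR called 0 of 10, against 1.05%. Il7r was again the 1 gene at an unadjusted p under 0.05, against 13.3% of all genes, and DESeq2 called 0, against 7.59%.

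Groups without overlap in CPM were common in these data. For injured over uninjured meninges, 2 of the 10 genes, Il7r and Il2ra, were higher without overlap, against 5.35% of all genes, and 0 were lower, against 6.79%. For uninjured meninges over lung 0 were higher, against 7.63%, and 1, Il4ra, was lower, against 10.6%. For injured meninges over lung 1, Il7r, was higher, against 6.38%, and 1, Il21r, was lower, against 11.4%. The median log2 fold change of the 10 genes was 0.40 for injured over uninjured meninges, -0.30 for uninjured meninges over lung and 0.10 for injured meninges over lung, against -0.0047, 0.0019 and -0.010 over all genes tested. These comparisons share libraries and are not independent of each other.

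**Figure D2:**
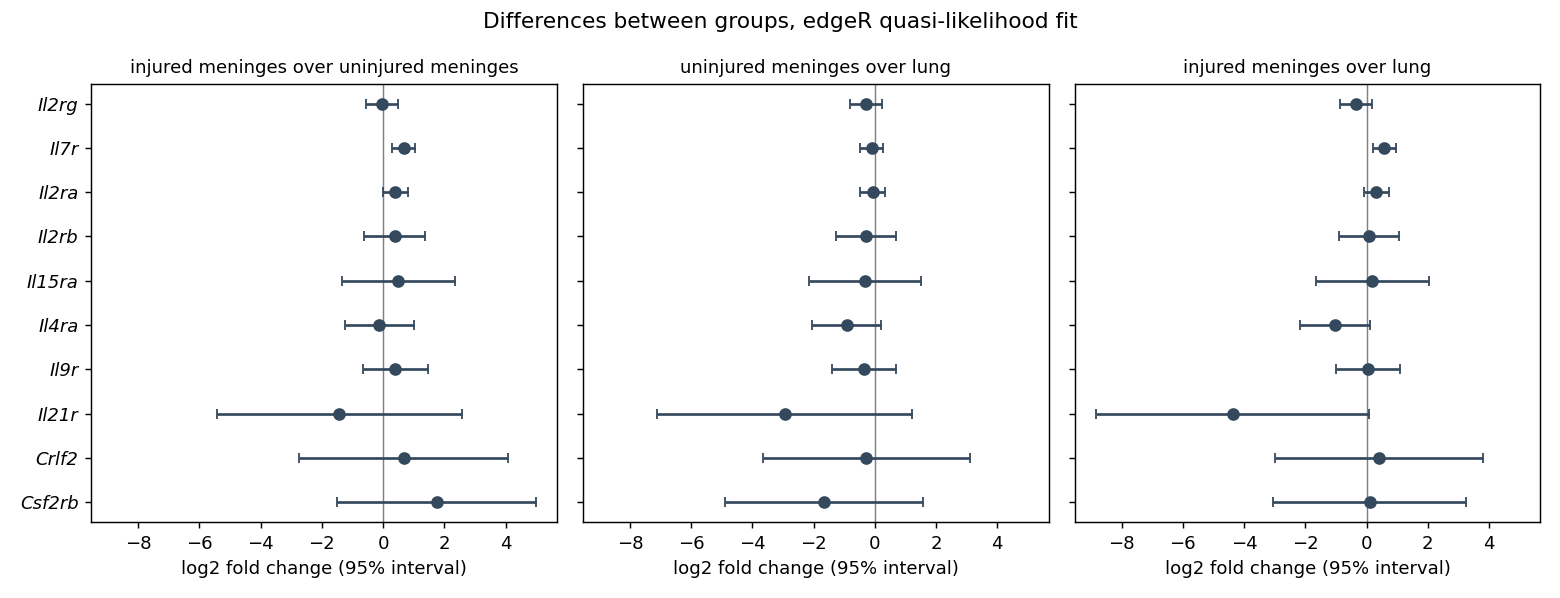
Log2 fold changes of the 10 receptor genes in the 3 comparisons, with 95% intervals from the edgeR fit over 9 libraries. Points right of the line at 0 are higher in the group named first. The intervals of Il7r lie above 0 for injured meninges over both other groups, and those of Il21r, Crlf2 and Csf2rb are the widest.

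Il7r encodes the alpha chain of the IL-7 receptor, which is also part of the TSLP receptor. It had 1671, 2218 and 2368 CPM in injured meninges, 1531, 1286 and 1084 CPM in uninjured meninges and 1443, 1483 and 1277 CPM in lung. Every injured library lay above every other library, and uninjured meninges and lung overlapped. The log2 fold change for injured over uninjured meninges was 0.68 ± 0.18 (SE, 95% interval 0.30 to 1.06, edgeR adjusted p = 0.22). For injured meninges over lung it was 0.57 ± 0.18 (0.20 to 0.95, edgeR adjusted p = 0.16), and for uninjured meninges over lung -0.11 ± 0.18 (-0.48 to 0.27, edgeR adjusted p = 0.99). Its p ranked 105 among the 15117 genes in the injury comparison.

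Il2ra encodes CD25, the chain that raises the affinity of the IL-2 receptor. Its levels were 1659, 1630 and 1798 CPM in injured meninges, 1552, 1201 and 1122 CPM in uninjured meninges and 1253, 1758 and 1070 CPM in lung. The injured libraries lay above the uninjured meningeal ones by a small margin and overlapped with lung through lung 2. Injured over uninjured meninges gave a log2 fold change of 0.39 ± 0.19 (SE, 95% interval -0.02 to 0.80, edgeR adjusted p = 0.58). The value was -0.07 ± 0.19 for uninjured meninges over lung (-0.48 to 0.34, edgeR adjusted p = 0.99). On the linear scale these intervals run from 0.988-fold to 1.75-fold for injury and from 0.715-fold to 1.26-fold for tissue.

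Promoter windows are shown for Il7r and Il2ra because these were the most abundant members and those whose injured and uninjured meningeal libraries did not overlap. The sequences are from RefSeq on GRCm38.p6, which is not the build named for the counts, and run from 250 bases before to 50 bases after the gene's start, 5′ to 3′ on the gene's strand. The Il7r window is chr15:9529827-9530126 on the minus strand and the Il2ra window chr2:11642542-11642841 on the plus strand. Capitals mark a match to the motif TTCNNNGAA, bound by STAT dimers.
Il7r: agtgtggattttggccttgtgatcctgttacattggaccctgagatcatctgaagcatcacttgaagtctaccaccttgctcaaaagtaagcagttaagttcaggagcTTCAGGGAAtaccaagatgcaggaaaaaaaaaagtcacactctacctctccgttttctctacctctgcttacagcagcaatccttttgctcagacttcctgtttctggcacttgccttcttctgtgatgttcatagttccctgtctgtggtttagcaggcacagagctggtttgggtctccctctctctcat
Il2ra: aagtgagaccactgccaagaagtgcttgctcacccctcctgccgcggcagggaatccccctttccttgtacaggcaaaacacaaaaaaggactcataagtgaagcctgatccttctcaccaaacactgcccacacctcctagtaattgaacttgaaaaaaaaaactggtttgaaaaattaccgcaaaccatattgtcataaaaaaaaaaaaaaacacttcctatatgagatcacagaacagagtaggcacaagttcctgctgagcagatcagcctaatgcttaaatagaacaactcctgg
The Il7r window held 1 match, whose first base lies at position -142 from the start, and the Il2ra window held none. RefSeq windows matched 8 of the 10 genes, all but Il2rb and Csf2rb. Il7r was the 1 of these 8 genes with TTCNNNGAA, a motif held by 8.47% of 27025 promoter windows of the same length. AGATAA, to which factors of the GATA family bind, was searched on both strands and occurred 2 times in the Il9r window and in no other, against 11.4% of all windows with at least 1. CCGGAAGT, an ETS motif searched on both strands, occurred in none of the 8 genes' windows, against 4.0% of all. TTCNNNGAA reads alike on both strands, and no window held more than 1 kind of motif. A match is a description of these letters and shows no binding.

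Il2rg, the common gamma chain itself, had 276, 323 and 191 CPM in injured meninges, 254, 216 and 346 CPM in uninjured meninges and 293, 342 and 360 CPM in lung. All 3 groups overlapped. Injured over uninjured meninges gave a log2 fold change of -0.05 ± 0.25 (SE, 95% interval -0.57 to 0.47, edgeR adjusted p = 0.99), and uninjured meninges over lung -0.29 ± 0.25 (-0.81 to 0.24, edgeR adjusted p = 0.93). In GENCODE M21, exons of Gm20489, a gene model on the same strand, cover 30.5% of the exon bases of Il2rg. With that annotation, reads there cannot be assigned to 1 gene by position. Gm20489 was not found by its symbol among the genes of the deposited table, and the annotation used for counting is not named. What the overlap did to the level of Il2rg was not tested.

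Il2rb encodes the signalling beta chain shared by the receptors for IL-2 and IL-15. It had 196, 64.6 and 64.2 CPM in injured meninges, 79.6, 114 and 55.8 CPM in uninjured meninges and 57.6, 159 and 89.6 CPM in lung. Injured meninges 1 was the highest of the 9 libraries, and the other two injured libraries lay within the range of uninjured meninges. For injured over uninjured meninges the log2 fold change was 0.38 ± 0.47 (SE, 95% interval -0.61 to 1.37, edgeR adjusted p = 0.88), and -0.36 without injured meninges 1. Summed markers of NK cells and ILC1s, cells known to carry much of this chain, stood at 14.0, 2.39 and 0.125 CPM in injured meninges, 7.78, 0 and 0.067 in uninjured meninges and 14.0, 12.2 and 8.01 in lung. In injured meninges 1 this sum was nearly all Klrb1c, at 13.7 CPM, with Gzma and Ncr1 at 0 and Eomes and Klrk1 at or below 0.179 CPM. Lung 1 had a like sum and the least Il2rb of the lung libraries. The part of such cells in the level of Il2rb was not tested. In bulk libraries, a change in the number of cells of a type and a change in RNA per cell cannot be told apart.

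Il15ra, which presents IL-15 to the beta and gamma chains, had 6.21, 69.3 and 3.63 CPM in injured meninges, 17.0, 11.0 and 27.7 CPM in uninjured meninges and 25.2, 18.5 and 25.5 CPM in lung. Injured meninges 2 was the highest of all libraries and the other two of its group were the lowest. The log2 fold change for injured over uninjured meninges was 0.50 ± 0.86 (SE, edgeR adjusted p = 0.92) with all libraries and -1.91 without injured meninges 2, so 1 library set its sign. Uninjured meninges over lung gave -0.31 ± 0.86 (edgeR adjusted p = 0.99).

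Il9r, the IL-9 receptor, through which ILC2s respond to their own IL-9, had 42.5, 292 and 75.2 CPM in injured meninges, 104, 113 and 92.2 CPM in uninjured meninges and 145, 145 and 107 CPM in lung. As with Il15ra, injured meninges 2 was the highest of the 9 libraries and its companions were the lowest. With all libraries, the value for injured over uninjured meninges was 0.40 ± 0.49 on the log2 scale (SE, edgeR adjusted p = 0.88), and -0.81 without injured meninges 2 (edgeR adjusted p = 0.57). Uninjured meninges over lung gave -0.36 ± 0.49 (edgeR adjusted p = 0.98). The same library had the most counts of T cell markers, with a sum of 103 CPM over 6 genes against 1.44 to 48.0 CPM in the other 8 libraries, and of 5 B cell markers, with 70.8 CPM against 3.07 to 57.3 CPM. Cd3g alone made up 91.9 CPM of that T cell sum, while Cd3d, Cd5 and Cd8a were each at or below 0.716 CPM there, and Cd3d was highest in uninjured meninges 3, at 30.7 CPM. Of the B cell markers, Ms4a1, Cd79a and Cd79b stood at 17.4, 29.7 and 23.5 CPM in injured meninges 2. Summed markers of mast cells and basophils, which also carry Il9r, were 3.18 CPM there, against 0.752 to 22.5 CPM in the others. The part of other cells in these levels was not tested.

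Il4ra, the chain that binds IL-4 and, with a partner, IL-13, had 39.1, 15.0 and 13.9 CPM in injured meninges, 32.5, 19.0 and 22.2 CPM in uninjured meninges and 36.7, 59.9 and 42.5 CPM in lung. Each uninjured meningeal library lay below each lung library. The lung libraries were also those with more epithelial, endothelial and fibroblast markers, whose part in this difference was not tested. For uninjured meninges over lung the log2 fold change was -0.92 ± 0.53 (SE, 95% interval -2.05 to 0.22, edgeR adjusted p = 0.78). For injured meninges over lung it was -1.04 ± 0.53 (-2.17 to 0.10, edgeR adjusted p = 0.43), with overlap through injured meninges 1, and -1.69 without that library. For injured over uninjured meninges it was -0.12 ± 0.53 (-1.24 to 1.01, edgeR adjusted p = 0.98), and -0.76 without injured meninges 1. Exons of the antisense gene Gm44876 cover 9.51% of the exon bases of Il4ra in GENCODE M21. Gm44876 had 0 counts in all 3 injured libraries, 4, 13 and 0 in uninjured meninges and 25, 52 and 89 in lung, and Il4ra had 188 to 814. What the overlap did to the level of Il4ra was not tested.

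The other 3 receptor genes were scarce. Il21r, the IL-21 receptor, had 0, 1 and 12 counts in injured meninges, 20, 2 and 16 in uninjured meninges and 15, 17 and 244 in lung. Lung 3 stood alone at 15.6 CPM, while the other 8 libraries had at most 1.25 CPM. For injured over uninjured meninges, which overlapped, the log2 fold change was -1.43 ± 1.88 (SE, edgeR adjusted p = 0.89), and -4.09 without injured meninges 3. The injured libraries lay below the lung libraries without overlap. Injured meninges over lung came to -4.37 ± 2.10 on the log2 scale (SE, edgeR adjusted p = 0.39), -1.94 without lung 3 and -7.03 without injured meninges 3. Uninjured meninges over lung gave -2.94 ± 1.96 (edgeR adjusted p = 0.85), and -0.50 without lung 3.

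Crlf2, the TSLP receptor chain that pairs with the product of Il7r, had 82, 2 and 69 counts in injured meninges, 43, 31 and 23 in uninjured meninges and 52, 8 and 52 in lung. On the CPM scale these were 4.90, 0.159 and 4.32 in injured meninges, 2.34, 2.00 and 1.54 in uninjured meninges and 3.20, 0.589 and 3.33 in lung. Crlf2 was thus near the limit of detection in injured meninges 2, whose limit was 0.239 CPM, and above the limit in the other 8 libraries. Its log2 fold change was 0.67 ± 1.60 for injured over uninjured meninges (SE, 95% interval -2.73 to 4.07, edgeR adjusted p = 0.95). For uninjured meninges over lung it was -0.27 ± 1.60 (edgeR adjusted p = 0.99).

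Csf2rb, the common beta chain, had 188, 254 and 4 counts in injured meninges, 89, 0 and 68 in uninjured meninges and 40, 199 and 193 in lung. By counting error alone, a 0 in uninjured meninges 2 allows up to 0.194 CPM there. The RNA had been amplified, so the true level could lie higher. All 3 groups overlapped, with 1 low library in injured meninges and 1 in uninjured meninges. Its log2 fold change was 1.75 ± 1.53 for injured over uninjured meninges (SE, 95% interval -1.50 to 4.99, edgeR adjusted p = 0.81) and -1.64 ± 1.52 for uninjured meninges over lung (-4.88 to 1.59, edgeR adjusted p = 0.94). Injured over uninjured meninges came to 0.87 without injured meninges 2, to 1.17 without uninjured meninges 2 and to 2.32 without injured meninges 3. Its mouse paralogue Csf2rb2, a beta chain used by the IL-3 receptor, had 37, 20 and 0 counts in injured meninges, 3, 0 and 21 in uninjured meninges and 137, 0 and 21 in lung. Of the 50-base words in Csf2rb transcripts, 12.3% also occur in Csf2rb2, so part of the reads could have been split or set aside between the genes. With both genes summed, the log2 fold changes were 1.69 for injured over uninjured meninges and -1.83 for uninjured meninges over lung. Markers of monocytes, macrophages and neutrophils, which express Csf2rb, summed to 135, 53.9 and 38.7 CPM in injured meninges, 93.1, 24.3 and 94.98 in uninjured meninges and 350, 12.5 and 470 in lung. Of these markers, Lyz2 had 6.78 to 425 CPM in lung (median 326), while each of the others had at most 11.7 CPM there. The part of monocytes, macrophages and neutrophils in the level of Csf2rb was not tested.

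**Figure D3:**
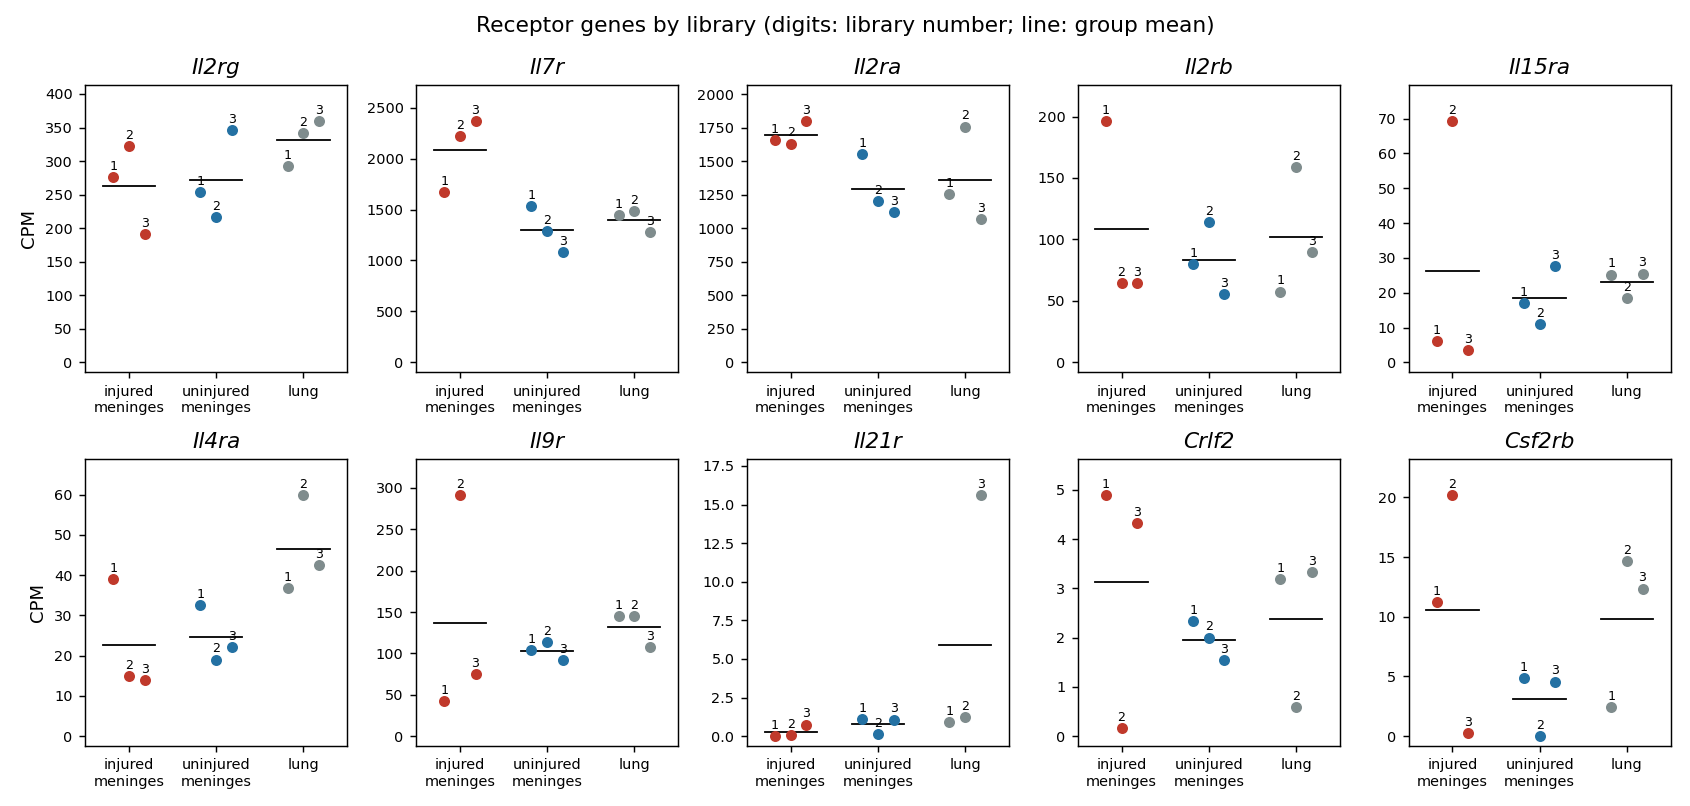
Level of each receptor gene in CPM (linear axes that include 0) in the 3 libraries of each group. Digits give the library number and lines the group mean. Il7r is higher in the 3 injured libraries than in the other 6, while Il15ra, Il9r and Il21r each have 1 library far above the rest.

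The genes whose levels followed Il7r most closely over the 9 libraries were Rbm7, with a Pearson r of 0.959 on log2(CPM + 1), Gng2, with 0.954, and Emb, with 0.946. They ranked highest of the 3202 genes whose mean reached 50 CPM. The points share library depth and composition, and r is given as a description. Emb, which encodes the cell adhesion molecule embigin, averaged 1115 CPM in injured meninges, 388 in uninjured meninges and 480.2 in lung. Gng2, a G protein gamma subunit gene, averaged 165, 72.7 and 96.3 CPM in the same groups, and Rbm7 83.3, 42.3 and 54.8 CPM.

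Ligands, partner chains and signalling genes of these receptors were described with a list of 38 genes, of which 36 were in the table and 31 were tested. None passed the threshold in any comparison. For injured against uninjured meninges edgeR called 0 of 31, against 0.192% of all genes tested. There was 1 at an unadjusted p under 0.05, against 8.94% of all genes, and DESeq2 called 0, against 2.86%. For uninjured meninges against lung edgeR called 0, against 0.635%, with 5 at an unadjusted p under 0.05, against 7.98%, and DESeq2 called 0, against 3.52%. For injured meninges against lung edgeR called 0, against 1.05%, with 3 at an unadjusted p under 0.05, against 13.3%. DESeq2 called 2 there, against 7.59% of all genes: Csf2, lower in injured meninges (adjusted p = 0.012), and Il4, higher (adjusted p = 0.036). The median log2 fold change of the 31 genes was -0.11 for injured over uninjured meninges and -0.26 for uninjured meninges over lung.

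Among the ligands, Csf2, the gene of GM-CSF, had 16.8, 3.74 and 5.77 CPM in injured meninges, 6.58, 3.48 and 23.2 CPM in uninjured meninges and 15.7, 78.8 and 117 CPM in lung. Its log2 fold change for uninjured meninges over lung was -2.67 ± 0.85 (SE, edgeR adjusted p = 0.25). Il4, named after its values were seen because DESeq2 called it, had 13.4, 8.35 and 2.51 CPM in injured meninges, 2.78, 6.58 and 9.61 CPM in uninjured meninges and 1.41, 0.663 and 0 CPM in lung. Both meningeal groups lay above lung without overlap, opposite in direction to Csf2. Its log2 fold change was 3.53 ± 1.55 for injured meninges over lung (SE, edgeR adjusted p = 0.33) and 3.17 ± 1.53 for uninjured meninges over lung (edgeR adjusted p = 0.64). Il5, a growth factor of eosinophils, averaged 17.8 ± 10.6 CPM in injured meninges, 10.4 ± 11.9 in uninjured meninges and 47.8 ± 41.1 in lung (SD, n = 3 each). Il15 averaged 7.20 ± 6.75, 1.49 ± 2.06 and 8.81 ± 1.00 CPM in those groups. Il7, Il9, Tslp and Il3 were too scarce to be tested, and all 4 were at 0 counts in every injured library. In the partner chains, Csf2ra, the GM-CSF-binding chain, averaged 3.44 ± 2.85 CPM in injured meninges, 11.2 ± 8.67 in uninjured meninges and 8.21 ± 4.47 in lung, and Il3ra, the chain that binds IL-3, averaged 2.97 ± 4.73, 0.449 ± 0.314 and 2.94 ± 3.95 CPM. Il5ra was too scarce to be tested.

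Of the Janus kinases, Jak2, which serves the common beta chain, averaged 531 ± 164 CPM in injured meninges, 365 ± 47.7 in uninjured meninges and 535 ± 156 in lung. Its log2 fold change was 0.54 ± 0.25 for injured over uninjured meninges (SE, edgeR adjusted p = 0.56) and -0.55 ± 0.25 for uninjured meninges over lung (edgeR adjusted p = 0.60). Jak3, the kinase of the gamma chain, had 43.3, 129 and 42.5 CPM in injured meninges, 35.9, 60.1 and 35.5 CPM in uninjured meninges and 31.5, 30.7 and 46.4 CPM in lung, and was highest in injured meninges 2. Tyk2 averaged 54.0 ± 37.8 CPM in injured meninges, 43.0 ± 0.76 in uninjured meninges and 66.1 ± 44.0 in lung. Of the STATs, Stat5a, downstream of IL-2 and IL-7, averaged 45.9 ± 38.1 CPM in injured meninges, 19.7 ± 10.5 in uninjured meninges and 26.7 ± 6.32 in lung. Stat6, downstream of IL-4, averaged 150 ± 52.3, 120 ± 33.8 and 143 ± 17.4 CPM.

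Feedback inhibitors and target genes of the pathway likewise missed the threshold. Socs1, an inhibitor of Janus kinases, had 9.26, 4.45 and 12.7 CPM in injured meninges, 23.5, 23.4 and 17.7 CPM in uninjured meninges and 9.65, 10.0 and 3.65 CPM in lung. Its uninjured meningeal libraries lay above those of both other groups, with log2 fold changes of -1.29 ± 0.77 for injured over uninjured meninges (SE, edgeR adjusted p = 0.67) and 1.47 ± 0.78 for uninjured meninges over lung (edgeR adjusted p = 0.71). Cish, a target of STAT5, averaged 164 ± 38.5 CPM in injured meninges, 205 ± 27.2 in uninjured meninges and 172 ± 62.9 in lung. Socs3 averaged 1.40 ± 0.92, 1.51 ± 0.76 and 5.04 ± 2.81 CPM in those groups. Myc, a growth regulator, had 37.9, 81.9 and 29.6 CPM in injured meninges, 51.2, 91.4 and 106 CPM in uninjured meninges and 38.2, 35.3 and 37.9 CPM in lung. Its log2 fold change was -0.73 ± 0.43 for injured over uninjured meninges (SE, edgeR adjusted p = 0.67) and 1.16 ± 0.44 for uninjured meninges over lung (edgeR adjusted p = 0.41). Bcl2l1, which encodes the survival protein BCL-XL, averaged 16.6 ± 1.17 CPM in injured meninges, 30.7 ± 4.15 in uninjured meninges and 22.2 ± 11.5 in lung. Pim1, a kinase gene induced by STATs, averaged 31.2 ± 13.8, 42.9 ± 16.4 and 66.1 ± 18.8 CPM.

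**Figure D4:**
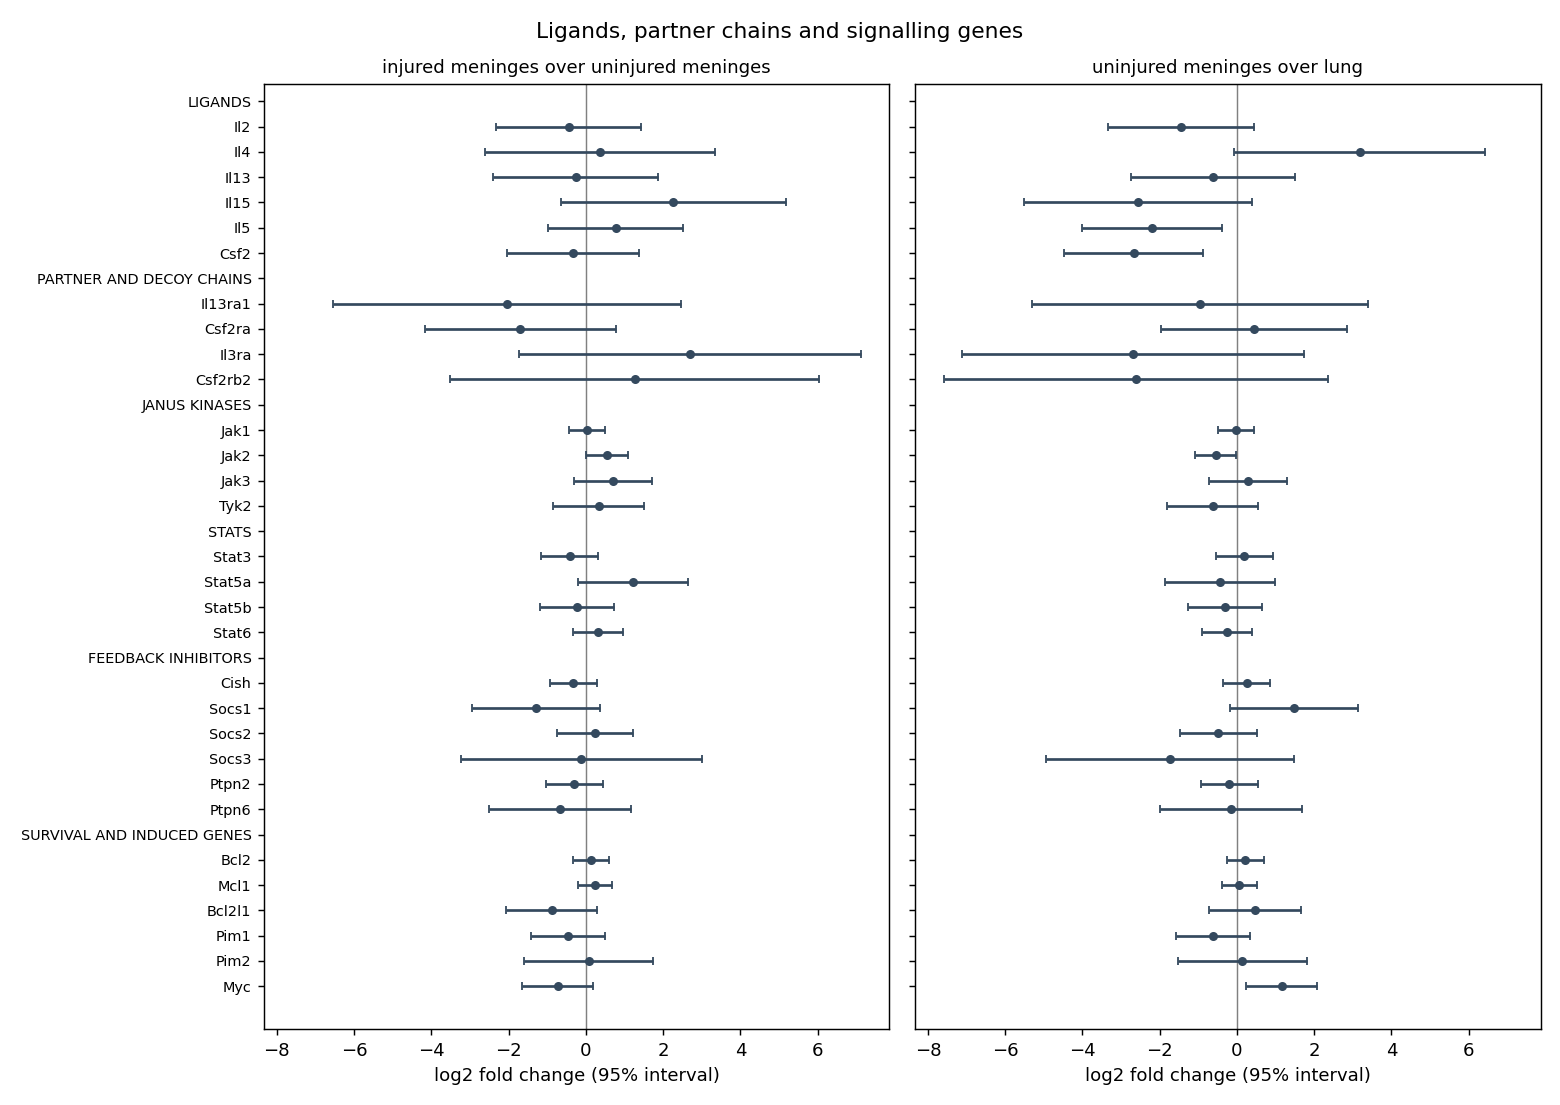
Log2 fold changes with 95% intervals for 30 of the 31 tested ligand, partner chain and signalling genes, in injured over uninjured meninges and in uninjured meninges over lung. The intervals of Jak2 on the left, and of Il5, Csf2, Jak2 and Myc on the right, do not include 0, and none of these genes passed after adjustment over all genes.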

How the data were processed

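Per the submitters' processing notes, the tools named are STAR, HTSeq and FastQC and the build is mm9, with no versions or roles. The authors deposited raw counts per Ensembl gene, per the file headers, with no normalization. The sources used here do not give the strand setting of the counting. RNA had been amplified, per the labels' protocols, so counts are not independent molecules.

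Genes were filtered with filterByExpr, and libraries scaled with trimmed-mean factors. edgeR 4.0.16 in R 4.3.3 fitted all 9 libraries with a mean per group, with robust quasi-likelihood F tests and Benjamini-Hochberg adjustment over 15117 genes, at a threshold of 0.05. Each standard error is the log2 fold change over the root of its F, and 95% intervals use the fit's degrees of freedom. The procedure was run on simulated counts with less spread between libraries than these data have, so that run does not measure its error rates or power here. DESeq2 1.42.0 was an alternative. Exon lengths, overlaps and shared words are from GENCODE M21, matched by identifier.

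The 10 genes, the lists and the naming rule were chosen with earlier results of these data known. The rule named all 10 genes, and per list each called gene, the 2 with the smallest p for injury and the 2 for tissue. The values of 1 pathway gene it named are not reported here, though the counts include that gene. Replicate numbers were not taken as pairs, since deviations of same-numbered libraries correlated at only -0.034 to 0.096.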

Additional observations from a re-analysis of the deposited data

How the results depend on the processing

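No receptor gene passed the threshold under any of 18 alternatives per gene and comparison (19 for Csf2rb). Over these, 513 values kept the sign of the main one and 30 turned. The lowest adjusted p of Il7r was 0.075 for injured over uninjured meninges and 0.055 for injured meninges over lung, both without injured meninges 1. With a replicate block, signs turned for Il15ra and Crlf2 in injured over uninjured meninges (-0.23 and -0.20, log2), for Crlf2 in uninjured meninges over lung (0.37) and for Il15ra and Il9r in injured meninges over lung (-0.50 and -0.29). The block changed no call of a receptor gene, and called 43, 136 and 183 genes in the 3 comparisons against 29, 96 and 159 without it. Without composition scaling, Il2ra turned to 0.034 for uninjured meninges over lung, and with Csf2rb2 added, Csf2rb turned to -0.15 for injured meninges over lung.

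Leaving out 1 library turned other signs, with these ranges of log2 fold changes. For injured over uninjured meninges they were -0.22 to 0.16 for Il2rg, -0.36 to 0.68 for Il2rb, -1.91 to 1.02 for Il15ra, -0.76 to 0.14 for Il4ra and -0.81 to 0.84 for Il9r. For uninjured meninges over lung they were -0.24 to 0.0092 for Il7r, -0.23 to 0.13 for Il2ra, -0.59 to 0.15 for Il2rb and -0.75 to 0.049 for Crlf2. For injured meninges over lung they were -0.67 to 0.54 for Il2rb, -2.23 to 0.71 for Il15ra, -1.17 to 0.47 for Il9r, -0.10 to 0.96 for Crlf2 and -0.77 to 0.68 for Csf2rb.

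Counts over all genes moved more. For injured against uninjured meninges there were 78 calls without a filter, 435 with DESeq2, 12 with only the 6 libraries compared and 18 to 27 with 1 library left out, with 18 without injured meninges 2 and 19 without uninjured meninges 2. For uninjured meninges against lung there were 193, 535 and 226, and 51 to 196 with 1 left out, with 51 without lung 3, 53 without uninjured meninges 2 and 196 without injured meninges 2. For injured meninges against lung there were 296 without a filter, 1127 with DESeq2, and 54 to 230 with 1 left out, with 104 without injured meninges 3 and 90, 101 and 54 without lung 1, 2 and 3. Of the pathway genes, 1 was called without a filter for uninjured meninges against lung and 1, Csf2, for injured meninges against lung, while DESeq2 called 2 there, Csf2 and Il4. The causes were not tested.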
